A study of Mus musculus with 2 samples.

Results

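Open chromatin was described at 36 imprinted genes in mouse hematopoietic stem cells, out of 21853 protein-coding genes. The genes were taken as a named list of 18 imprinted domains. The list was set by name and not by a measured value, but earlier results of these data were known when it was chosen. Promoters were taken as the 1000 bp on each side of every protein-coding transcription start in the GENCODE M21 annotation of mm10, and each of the 139 starts of these genes, of 54361 in all, was also read on its own. Of the 36 genes, 8 had 1 start and the others up to 9. A distal peak was one whose summit lay over 1000 bp from every protein-coding start and within 50 kb of a start of the gene.

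The data were 2 ATAC-seq libraries, replicate 1 and replicate 2, of 1 group. ATAC-seq marks open chromatin by where the Tn5 transposase can insert adapters. Each library came from 50000 hematopoietic stem cells taken as primary cells from adult C57BL/6J males of 5 to 6 weeks, with no treatment and no engineered allele named in the labels. The labels give each library its own biosample but the same donor identifier, so it is not certain that they came from separate animals, and what differs between them may be technical. Of the sequencing instruments, both that the labels name belong to replicate 1, and none is named for replicate 2. C57BL/6J is an inbred strain, so the maternal and paternal copies carry the same sequence and the peaks do not tell them apart. In a library of many cells, fewer cells with an open site and a less open site in every cell also cannot be told apart.

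Imprinted genes are transcribed mainly from the copy inherited from the mother or mainly from the copy inherited from the father. They lie in domains, each governed by a control region whose CpG-rich DNA is methylated on the copy from one parent since the germ line, and which is often itself the start of a coding or long non-coding RNA. Many of the genes act in fetal and placental growth, and several, among them Igf2, H19, Cdkn1c, Dlk1, Grb10 and Ndn, have been studied in hematopoietic stem cells for their part in quiescence and self-renewal. Which parental copy is expressed, and which start is a control region, are given below as textbook background and were not measured here.

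The promoters differed in sequence as well as in accessibility, and the windows below show the DNA under the summits at members that the results turn on. Each is up to 101 bp centred on the summit in the library where the peak passed the stricter list (replicate 1, or replicate 2 for Peg3), read 5′ to 3′ on the strand of the gene from the RefSeq copy of GRCm38.p6 (mm10), with CG dinucleotides in capitals. Bases in annotated untranslated exons were removed, so the Zrsr1 window is 57 bp, and the window of Grb10, which lies wholly in such an exon, is not shown. They lie at chr2:174327367-174327467 (+ strand) for Gnas, chr11:22971948-22972004 (+ strand) for Zrsr1, chr7:59228596-59228696 (+ strand) for Ube3a, chr7:128611127-128611227 (+ strand) for Inpp5f, chr7:143069028-143069128 (+ strand) for Tssc4, chr11:22982001-22982101 (− strand) for Commd1 and chr7:6729509-6729609 (− strand) for Peg3.
Gnas, start 5: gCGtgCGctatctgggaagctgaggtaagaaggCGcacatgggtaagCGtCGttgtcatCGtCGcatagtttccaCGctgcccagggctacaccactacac
Zrsr1: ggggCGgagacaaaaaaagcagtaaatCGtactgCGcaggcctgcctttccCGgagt
Ube3a: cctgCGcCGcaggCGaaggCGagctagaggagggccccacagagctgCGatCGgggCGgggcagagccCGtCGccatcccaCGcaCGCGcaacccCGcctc
Inpp5f: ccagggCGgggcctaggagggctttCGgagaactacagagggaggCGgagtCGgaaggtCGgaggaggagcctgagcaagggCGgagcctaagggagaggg
Tssc4: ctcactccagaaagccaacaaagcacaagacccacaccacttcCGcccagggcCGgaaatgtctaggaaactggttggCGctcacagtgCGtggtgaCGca
Commd1: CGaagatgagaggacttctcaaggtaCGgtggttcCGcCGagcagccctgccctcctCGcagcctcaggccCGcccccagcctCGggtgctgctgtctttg
Peg3: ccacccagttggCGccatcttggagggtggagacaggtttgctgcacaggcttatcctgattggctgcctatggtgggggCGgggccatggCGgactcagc
The Ube3a window held 13 CG dinucleotides, Gnas 8, Commd1 7, Inpp5f 6, Tssc4 5 and Peg3 3, against a median of 8 over the windows of all 9906 replicate 1 promoter peaks.

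For contrast, the next stretches are the 150 bases before the RefSeq start of 3 CpG-rich promoters that had no peak in any list of either library. They come from the RefSeq promoter table of GRCm38.p6, which held 31 of the 36 genes (not Impact, Kcnq1, Peg10, Rtl1 or Sgce), and lie at chr2:157559928-157560077 (+ strand) for Nnat, chr6:30737900-30738049 (+ strand) for Mest and chr6:58907127-58907276 (− strand) for Nap1l5. Nnat encodes neuronatin, a membrane protein of brain and endocrine cells, Mest encodes an α/β-hydrolase linked to growth, and Nap1l5 encodes a nucleosome assembly protein-like factor.
Nnat: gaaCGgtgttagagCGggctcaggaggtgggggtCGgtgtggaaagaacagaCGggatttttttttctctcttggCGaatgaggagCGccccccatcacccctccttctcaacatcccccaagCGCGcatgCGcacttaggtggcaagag
Mest: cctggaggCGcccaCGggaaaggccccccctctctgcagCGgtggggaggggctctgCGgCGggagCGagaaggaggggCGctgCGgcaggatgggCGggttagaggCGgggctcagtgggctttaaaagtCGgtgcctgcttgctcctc
Nap1l5: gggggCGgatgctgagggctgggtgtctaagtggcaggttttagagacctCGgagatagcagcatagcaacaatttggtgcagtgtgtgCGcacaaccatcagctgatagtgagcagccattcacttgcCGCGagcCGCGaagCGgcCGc
These held 9, 11 and 9 CG dinucleotides for Nnat, Mest and Nap1l5, against a median of 4 in the same stretch of the 32851 promoters in the table. The 3 were picked as CpG-rich, so these counts do not describe all genes without a promoter peak. By CpG content, all starts of Ndn, Rtl1 and Ddc, which also had no promoter peak, were in the poorest tertile of all starts. The other genes without a promoter peak each had a start in the richest tertile.

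Short motifs of factors that act at imprinted regions were looked for on both strands. TGCCGC, the core bound by ZFP57, which keeps methylation at control regions, occurred in 0 of 10 summit windows (1 for each gene with a thresholded peak that the RefSeq table holds, without Grb10, and with the peak of Peg3 and Usp29 counted once) and in 7.84% of the 101 bp windows of all replicate 1 promoter peaks. It occurred once in the Mest stretch and once in the Nap1l5 stretch and not in the Nnat stretch, against 5.95% of all such promoter stretches. GCCATNTT, the core of YY1, occurred in the Peg3 window and in none of the other 9, against 2.71% of all windows. GGGCGG, the box bound by SP and KLF factors, occurred in 7 of the 10 windows against 42.6% of all. It also occurred in the Mest and Nap1l5 stretches and not in the Nnat stretch, against 28.6% of all such promoter stretches. CCGGAAG, an ETS core, occurred in 0 of the 10 against 9.89%. Overlaps between motifs were not removed, and a match describes these letters only. By the known classes, Ube3a, Tssc4, Commd1, Cd81, Asb4 and Slc22a18 have no control region at a start. Their windows are among the 10, so the 0 for TGCCGC does not describe control regions.

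The replicate 1 thresholded list held 25141 peaks and that of replicate 2 held 24495. These lists keep peaks whose rank is reproducible within the library, with a −log10 irreproducible discovery rate (IDR) of at least 1.30. The less strict pseudoreplicated lists held 62918 and 64843 peaks. Read depth is unknown from such lists, so a missing peak means that none was called. The cell label was checked on promoters of 8 stem cell markers, of which Hlf, Meis1, Runx1 and Lyl1 were in both thresholded lists and 7 were in both less strict lists. Of 21 markers of other cells, 4 (Pax5, Cd3d, Cdh5 and Snap25) were in both thresholded lists and 8 in both less strict lists. The same all-gene shares, 41.3% and 58.0%, stand beside these. Of the stem cell markers in both thresholded lists, Meis1 had the highest signal, 7.25 in replicate 1 and 7.67 in replicate 2. Pax5 (8.17 and 8.75), Snap25 (11.9 and 12.3) and Cd3d (13.3 and 12.6) were higher in both libraries. Cdh5 (7.21 and 8.03) was higher in replicate 2 alone. All 3 endothelial markers (Kdr, Pecam1 and Cdh5) were in both less strict lists, while the 3 erythroid markers (Gata1, Alas2 and Slc4a1) had no peak in any list. The part of other cells in the results below was not tested.

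Of the 36 imprinted genes, 8 had a promoter peak in both thresholded lists, which is 22.2%, against 41.3% of all protein-coding genes. They were Grb10, Ube3a, Gnas, Impact, Tssc4, Inpp5f, Zrsr1 and Commd1. Another 7 (19.4%) had one in a single thresholded list, against 7.47% of all genes. In the less strict lists the shares lay close together, with 22 imprinted genes (61.1%) in both lists against 58.0% of all genes. The other 14 comprised 4 with a less strict peak in one library and 10 (27.8%) with none in either, against 36.6% of all genes. Counted by start, 23 of 139 (16.5%) had a peak in both thresholded lists against 37.7% of all starts, and 57 (41.0%) in both less strict lists against 53.3%. The share of imprinted genes was thus lower than that of all genes in the strict lists and close to it in the less strict ones, and neither difference was tested.

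**Figure D1:**
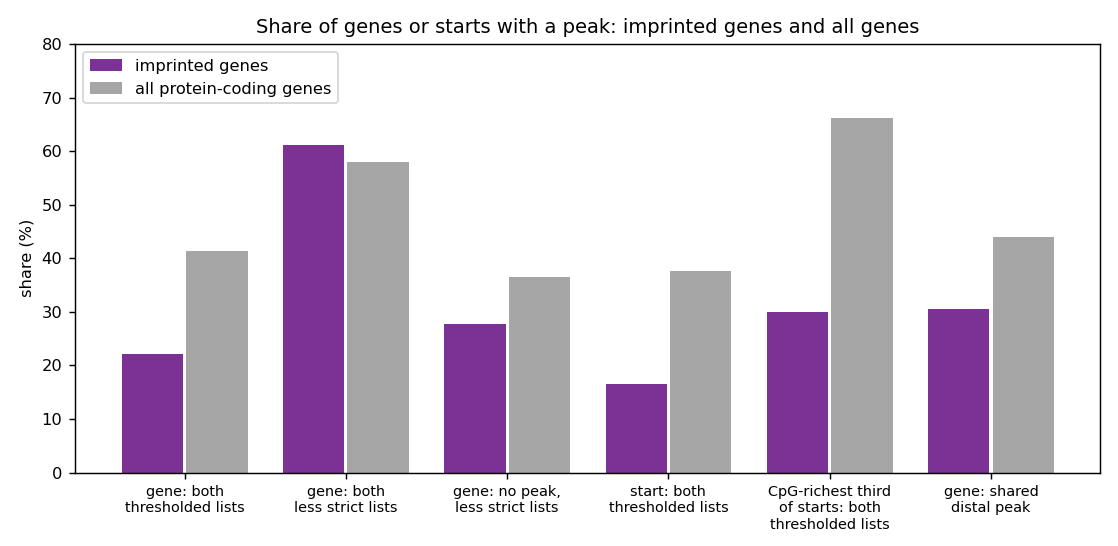
Share (%) of imprinted genes (purple, left bars) and of all protein-coding genes (grey, right bars) with a peak, by list. Imprinted genes were lower in both thresholded lists (22.2% against 41.3%) and similar in both less strict lists (61.1% against 58.0%), and 29.9% against 66.1% at CpG-rich starts.

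Signals at the open imprinted promoters had a lower median than those of all open promoters. The deposited signal value is the peak caller's own measure of peak height. At the 8 genes it ranged over 6.34 to 12.5 in replicate 1 with a median of 8.69, against a median of 10.3 over all 9030 open genes. In replicate 2 it ranged over 6.63 to 12.7 with a median of 8.90, against 10.9. The value of each of the 8 genes was its strongest thresholded peak at any start. For Impact in replicate 1 this was 9.41 at the first start, which was not in both thresholded lists. Its starts in both lists had a highest signal of 6.50 in that library.

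Inpp5f had the highest promoter signal among the imprinted genes in both libraries, followed by Ube3a in replicate 1 and Tssc4 in replicate 2. Inpp5f encodes a phosphoinositide phosphatase whose internal variant is the imprinted one, from the paternal copy. Its peak had a signal of 12.5 in replicate 1 and 12.7 in replicate 2, above 88.4% and 83.2% of the peaks or equal to them. Ube3a encodes the ubiquitin ligase lost in Angelman syndrome and is known as maternal in neurons but not in most other cells. Its peak had 11.9 in replicate 1 and 9.51 in replicate 2, over 6 of its 9 starts, all within 0.686 kb. The same domain holds Snrpn, Ndn, Magel2 and Mkrn3, and none of these had a thresholded promoter peak.

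Tssc4 and Commd1 likewise are known as imprinted only in certain tissues. Tssc4 encodes a splicing chaperone, maternal in placenta, and had 9.35 in replicate 1 and 10.2 in replicate 2, over all 6 of its starts. Commd1 encodes a protein of copper handling and endosomal traffic, maternal in brain, and had 8.03 in replicate 1 and 9.50 in replicate 2. The peak over Commd1 also lies at a start annotated to Gm28048. Zrsr1, a splicing factor retrogene in an intron of Commd1, is paternal, and its promoter is a control region. It had 6.34 in replicate 1 and 7.58 in replicate 2, the lower signal of the pair of nested genes in both libraries.

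In Gnas, 1 of 9 starts had a peak in both thresholded lists, and it was an internal one. Gnas encodes the stimulatory G protein α subunit and, from other starts, several further transcripts with maternal, paternal or no parental bias. Start 5, at chr2:174327768, lies 43.4 kb downstream of the first start and had a signal of 7.19 in replicate 1 and 7.11 in replicate 2. A second peak lay over the same start, with 6.00 in replicate 1 and 5.87 in replicate 2. Starts 1 to 3, which lie within 1.04 kb, and start 4, at 13.5 kb, had no thresholded peak. Starts 6 to 9 lie at 45.7 to 46.0 kb and had only less strict peaks, of at most 3.15 in replicate 1 and 3.11 in replicate 2. In the known order of Gnas starts, the one just before the last cluster is that of the exon 1A transcript, a maternally methylated control region. The annotation used does not name it so.

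Grb10 showed the same arrangement. It encodes an adaptor that restrains insulin and growth factor receptor signalling, and is maternal in most tissues and paternal in neurons, where an internal start is used. Of its 6 starts, the 2 with a peak in both thresholded lists were starts 4 and 5, 11951 and 12359 bp downstream of the first. A single peak served both, at chr11:12025791-12026102 in replicate 1 with a signal of 7.59, and at chr11:12025602-12026276 in replicate 2 with 8.30. Start 2, at 1.28 kb, had no thresholded peak and a less strict one of 3.86 in replicate 2 alone. With the starts of the RefSeq promoter table Grb10 was not in both thresholded lists, so its call rests on these GENCODE starts. By CpG content both peaked starts were in the richest tertile of all starts.

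Impact, which encodes a regulator of translation through the GCN2 pathway and is paternal, had peaks in both libraries at starts 3 to 5, 18.4 to 18.8 kb from the first. One peak there had 6.50 in replicate 1 and 6.37 in replicate 2. Another, with the summit at −1.03 kb from start 3 in replicate 1, had 6.14 in replicate 1 and 6.63 in replicate 2, and the 31 bases at its summit occur in 2 copies in the genome, so the placing of reads there is uncertain. The most upstream start had a higher peak, 9.41, in the replicate 1 thresholded list, and 7.58 in the less strict list alone in replicate 2. Start 2, at 16.1 kb, had 4.67 in replicate 1 and a less strict 4.14 in replicate 2.

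Inpp5f was the opposite case. Its peak lay over the first start, with the summit at −183 bp in replicate 1 and −113 bp in replicate 2, negative values being upstream. Starts 2 and 3, at 76.2 and 77.1 kb, where the imprinted variant begins, had no thresholded peak and only a less strict one of 3.51 in replicate 2.

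**Figure D2:**
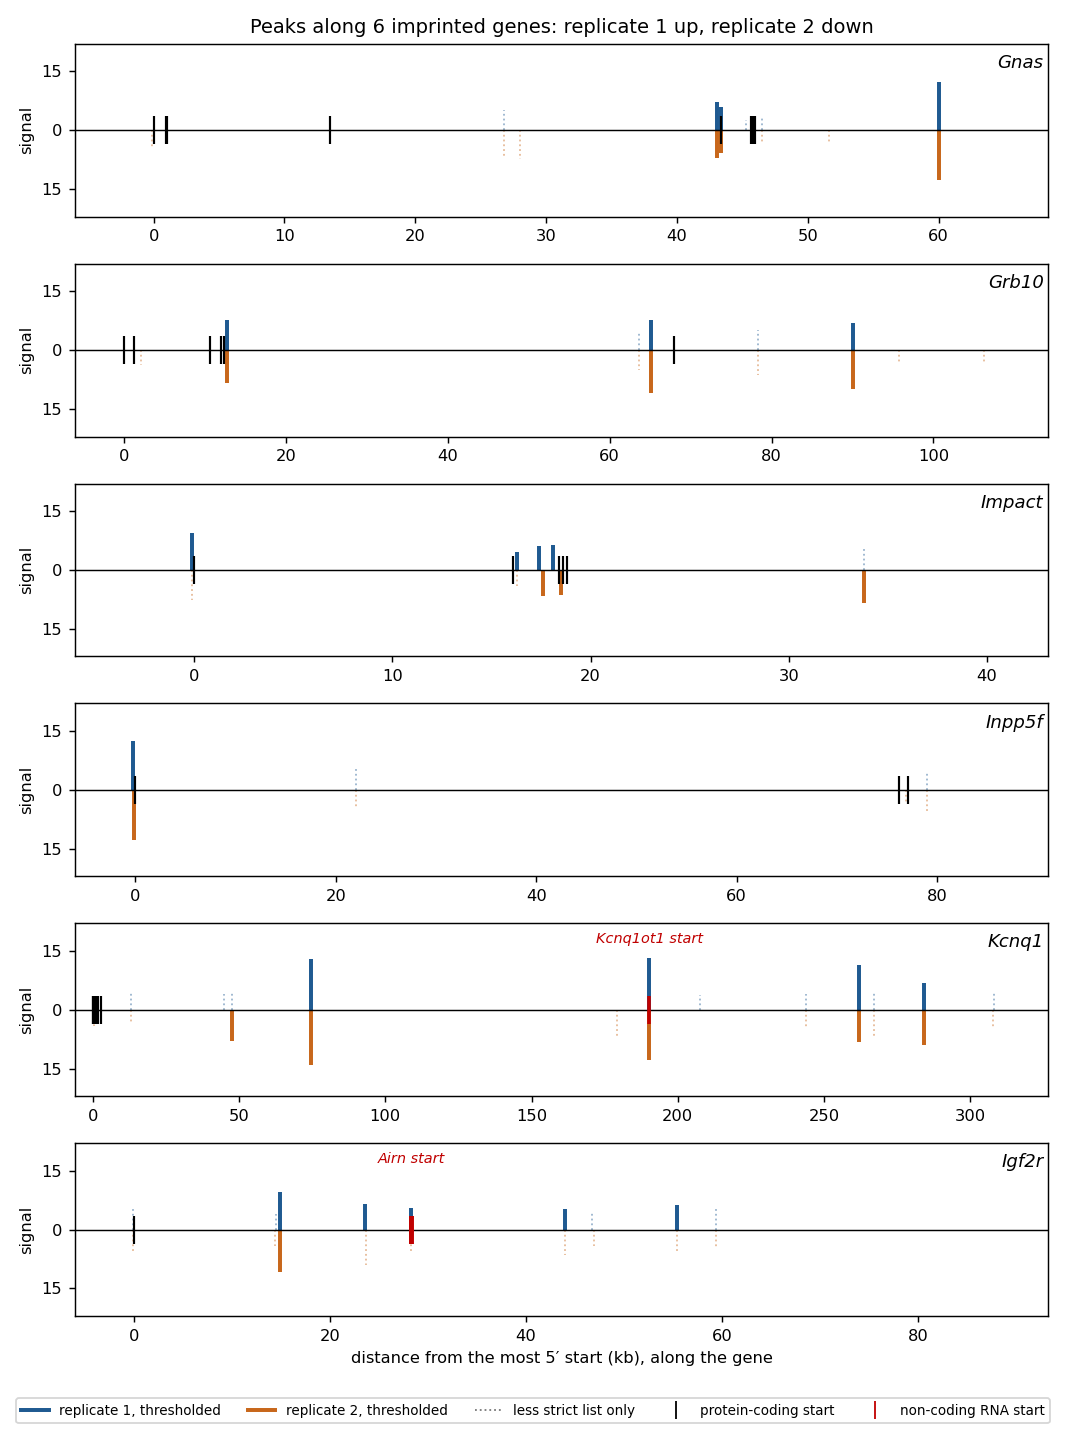
Peak summits along 6 imprinted genes by distance from the most 5′ start (kb), with signal upward for replicate 1 and downward for replicate 2; solid lines are thresholded peaks, dotted lines less strict ones, black ticks protein-coding starts and red ticks non-coding RNA starts. Gnas and Grb10 have thresholded peaks at internal starts (43.4 kb in Gnas, 12.4 kb in Grb10) and none at the first, Inpp5f the reverse, and Kcnq1 a peak at the Kcnq1ot1 start, 190.3 kb into the gene in replicate 1.

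Kcnq1 and Igf2r carry their control regions as starts of non-coding RNAs inside the gene, which the coding starts do not show. Kcnq1 encodes a potassium channel and its 7 coding starts had no thresholded peak, with 1 less strict peak of 4.12 in replicate 2. The start of Kcnq1ot1, the paternal antisense RNA that silences the domain, lies in the gene at chr7:143296549. It had a peak of 13.1 in replicate 1 and 12.7 in replicate 2, above or equal to 91.7% and 83.5% of the peaks and higher than any coding promoter of the 36 genes in replicate 1. Kcnq1 held 3 other shared peaks in its body, none within 50 kb of its coding starts. The strongest of these, 74.6 kb into the gene at chr7:143180745-143181379 in replicate 1, was above or equal to 90.9% of the replicate 1 peaks and had a signal of 14.1 in replicate 2.

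In Igf2r, the receptor that carries Igf2 to lysosomes, the coding start had a less strict peak in both libraries, of 5.59 and 5.42. Airn, the paternal antisense RNA that starts 28.3 kb into Igf2r, had 5.54 in the replicate 1 thresholded list and 5.38 in the less strict list of replicate 2. The Airn and Igf2r starts thus had almost the same signal within each library. A peak between them at 14.9 kb, in an intron, was higher in both libraries, with 9.60 in replicate 1 and 10.8 in replicate 2. Of the other domain non-coding RNAs, Peg13 had 6.35 and 6.00 in both thresholded lists, Meg3 had a less strict peak of 3.02 in replicate 1 alone, and H19, Nespas, Rian and Mirg had none in any list.

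Each of the 7 genes in a single thresholded list had a less strict peak in the other library. Peg10, a retrotransposon-derived gene of placenta, and Sgce, ε-sarcoglycan, start back to back and shared 1 peak, of 5.68 in replicate 1 and a less strict 5.09 in replicate 2. Its summit lay 934 bp inside Peg10 in replicate 1, and a weaker less strict peak of 4.02 lay over the Sgce starts in replicate 2 alone. Peg3, a zinc finger gene of growth and maternal behaviour, and Usp29, a deubiquitinase gene, also start back to back and shared 1 peak, with a less strict 4.86 in replicate 1 and 7.30 in replicate 2. Its summit lay 862 bp inside Peg3 in replicate 2, so the peak reached the Usp29 window only at its edge.

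The remaining single-list genes were maternal ones, Cd81 in placenta. Asb4, an ankyrin and SOCS box protein, had a less strict 7.39 in replicate 1 and 9.30 in replicate 2, with the summit at −635 bp from the start in replicate 2. Cd81, a tetraspanin of the cell surface, had 6.33 in replicate 1 and a less strict 5.42 in replicate 2. Slc22a18, a transporter, had 6.04 in replicate 1 and a higher but less strict 7.98 in replicate 2. The list a peak fell in therefore did not follow its signal in Slc22a18, whose −log10 IDR was 1.50 in replicate 1 and 1.23 in replicate 2. For these 7 genes the libraries cannot be ranked, since 4 were in the replicate 1 list and 3 in the replicate 2 list.

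In the less strict lists of both libraries, and in no thresholded one, were Igf2r, Zim1, Ppp1r9a, Snrpn, Magel2, Mkrn3 and Dlk1. Their order differed between the libraries. With every transcript's start, and not only the protein-coding ones, Ppp1r9a was in both thresholded lists. Beside Igf2r, given above, Zim1, a zinc finger gene beside Peg3, had 5.29 in replicate 1 and 6.18 in replicate 2, Mkrn3, a ubiquitin ligase gene, had 4.91 and 5.74, and Ppp1r9a, which encodes the actin-binding neurabin, had 4.43 and 5.75. Snrpn, a splicing protein of the Prader-Willi domain, had 3.40 and 4.85, but these were different peaks, at chr7:60003902-60004454 in replicate 1 and chr7:60005030-60005241 in replicate 2. Dlk1, a Notch-like membrane protein, had 4.92 and 4.85 at its last start, 6.99 kb downstream, and at starts 1 to 7 a peak in replicate 1 alone. In 4 more genes a less strict peak stood in a single library, which was replicate 1 for Plagl1, a zinc finger regulator of growth, and replicate 2 for Kcnq1, Phlda2, a brake on placental growth, and Ascl2, a trophoblast transcription factor.

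**Figure D3:**
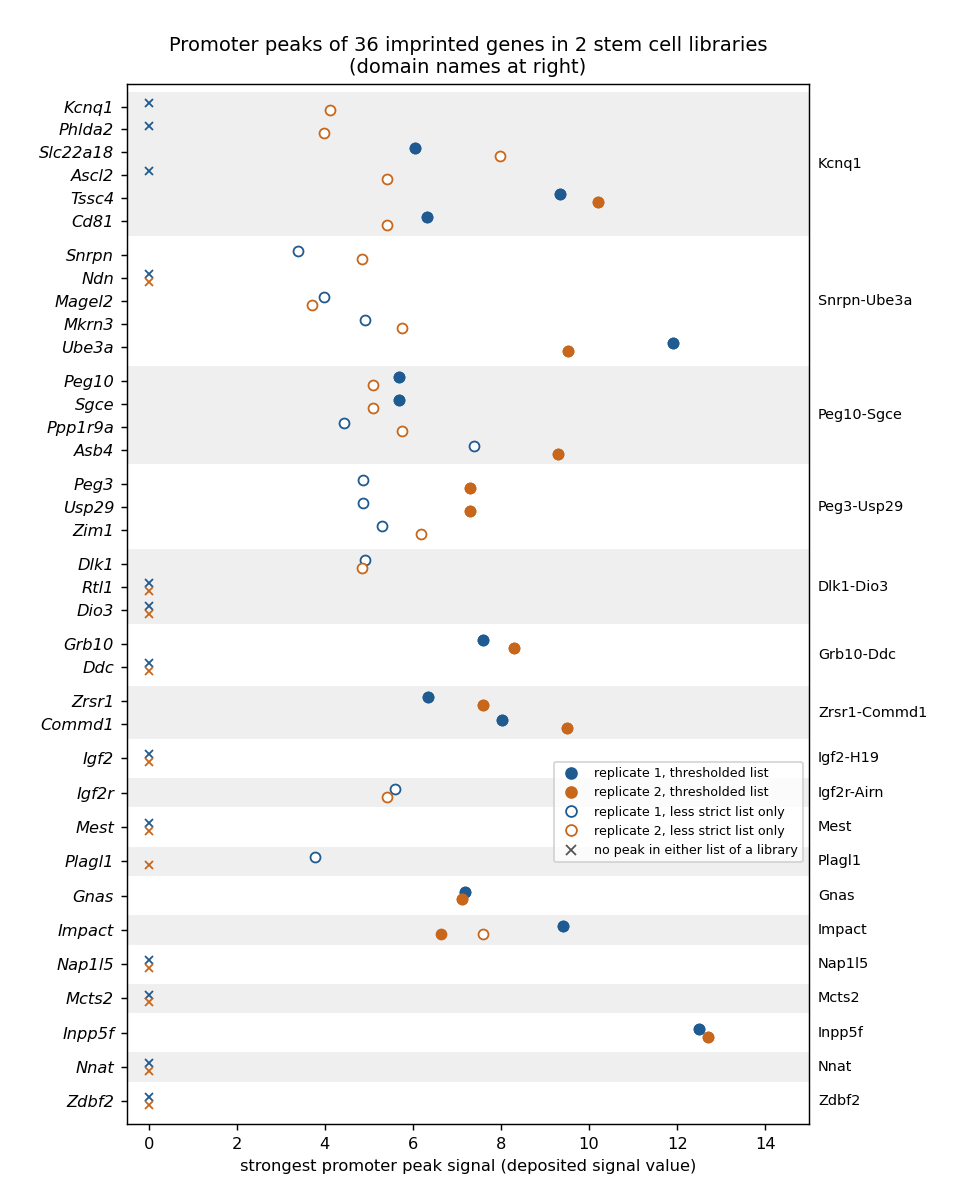
Strongest promoter peak signal of each imprinted gene in replicate 1 (blue) and replicate 2 (orange), grouped by domain; filled points are thresholded peaks, open points less strict peaks, crosses no peak. Inpp5f lies highest in both libraries, 8 genes have a filled point in both libraries (Impact with a second, open point at 7.58), and 10 genes have crosses in both.

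No promoter peak stood in any per-library list for Igf2, Ddc, Mest, Ndn, Rtl1, Dio3, Nap1l5, Mcts2, Nnat and Zdbf2. All 10 are paternal in the known classes (Ddc in fetal heart), as are 22 of the 36 genes. They include the fetal growth factor Igf2, the necdin gene Ndn, and the thyroid hormone deiodinase gene Dio3. Ndn depends on the annotation: its RefSeq start lies inside the GENCODE gene, and with RefSeq starts 8 of 31 genes had no less strict peak, Ndn not among them, against 9 of the same 31 with GENCODE starts. Ddc depends on it too. With every transcript's start, and not only the protein-coding ones, Ddc had a promoter peak in both thresholded lists. Nap1l5, Mcts2 and Nnat are retrogenes or genes that lie in introns of other genes, and the promoters of these hosts were in both thresholded lists. The host Herc3 had 6.47 and 6.13, H13 had 7.43 and 7.85, and Blcap had 8.53 and 8.07 in replicates 1 and 2. In all 3 pairs the host had a peak and the nested gene had none, while the nested Zrsr1 and its host Commd1 both had peaks.

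By known expressed copy, 4 of 13 maternal genes (30.8%) had a promoter peak in both thresholded lists, and 3 of 22 paternal genes (13.6%), against 41.3% of all genes. Gnas, with transcripts from both parents, was the remaining 1. In the less strict lists the counts were 10 of 13 maternal genes (76.9%) and 11 of 22 paternal genes, against 58.0% of all genes. Of the 4 maternal ones in both thresholded lists, Ube3a, Tssc4 and Commd1 are imprinted in certain tissues only. The class thus does not say that they are expressed from 1 copy in stem cells. The same holds for Cd81 and Ppp1r9a, maternal in placenta, which were in both less strict lists. Grb10, the remaining maternal one, had its thresholded peak at internal starts 4 and 5 alone. In neurons an internal start is used from the paternal copy. The counts by expressed copy thus do not show that a peak lay at the start used by the named copy. By control region, 2 of the 12 genes that start at one (16.7%), Impact and Zrsr1, were in both thresholded lists. Of the 5 with one inside the gene it was 3 (Grb10, Gnas and Inpp5f), and of the other 19 it was 3 (15.8%: Ube3a, Tssc4 and Commd1), beside the same 41.3% of all genes. These counts take a peak at any coding start and not at the control region itself. The Inpp5f peak lay at its first start, and not where the imprinted variant begins. Kcnq1 was not counted, although the Kcnq1ot1 start inside it had 13.1 in replicate 1 and 12.7 in replicate 2.

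By domain, 7 of 18 held a gene with a promoter peak in both thresholded lists, and in no domain of more than 2 genes was it more than 1. The Kcnq1 domain had 1 of 6 genes (Tssc4), the Snrpn-Ube3a domain 1 of 5 (Ube3a), and the Peg10-Sgce domain 0 of 4 and the Peg3-Usp29 domain 0 of 3, although all genes of both these domains were in both less strict lists. The Dlk1-Dio3 domain had 0 of 3 and only Dlk1 in the less strict lists. The Zrsr1-Commd1 domain had both of its genes.

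The lower share in the strict lists was also seen among starts of like CpG content. Starts were cut into tertiles by the observed over expected CpG in the 1001 bp around them, the richest tertile being above 0.698. Of the 139 imprinted starts, 67 were in that tertile, and 20 of these (29.9%) had a peak in both thresholded lists, against 66.1% of all such starts. In the middle tertile it was 3 of 43 (6.98%) against 41.6%, and in the lowest 0 of 29 against 5.34%. Taken by gene, 7 of 24 genes with a CpG-rich start (29.2%) were in both thresholded lists against 66.0% of all such genes, and 13 of 24 in both less strict lists against 87.0%. Among genes with a CpG-rich start the imprinted ones were thus lower in both kinds of list. Among genes whose CpG-richest start was in the middle tertile, 1 of 8 imprinted genes (12.5%) was in both thresholded lists against 42.3%, but all 8 were in both less strict lists against 62.6% of all such genes.

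Distal peaks shared by both libraries lay within 50 kb of 11 imprinted genes (30.6%), against 43.9% of all genes. There were 19 of them, a mean of 0.528 ± 0.910 per imprinted gene (SD, n = 36 genes) against 0.717 ± 1.03 over all genes. Their median was 0 in both. The SD gives the spread between genes and not the precision of a mean. The difference of the means was not tested. The lower share did not hold in every list. With replicate 1 alone, 21 imprinted genes (58.3%) had a distal peak against 52.4% of all genes, with replicate 2 alone 19 (52.8%) against 53.0%, and in both less strict lists 27 (75.0%) against 74.2%.

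The distal peak with the highest signal in both libraries lay in an intron of Asb4, 11.2 kb downstream of a start, at chr6:5401377-5401984, with 15.2 in replicate 1 and 14.9 in replicate 2. It was higher than any promoter peak of the 36 genes in both libraries. The others of the highest 5 by replicate 1 signal follow. One was in an intron of Gnas, 14.1 kb downstream of its nearest start, at chr2:174343953-174344603, with 12.4 and 12.7. Another was in an intron of Th, 49.3 kb downstream of Ascl2, at chr7:142919250-142919577, above or equal to 86.0% of the replicate 1 peaks and with a signal of 14.2 in replicate 2, where it ranked above the Gnas peak. A further one lay upstream of Gnas, −41.7 kb from its nearest start, at chr2:174242452-174242814, with 10.7 and 12.7, and one upstream of Grb10, at −12.0 kb, at chr11:12050568-12050881, with 9.71 and 10.5. In replicate 2, another peak near Grb10 (10.9) and peaks at −41.0 kb and 14.9 kb from Igf2r had higher signals than this one. In all, Igf2r and Grb10 had 3 distal peaks each, Gnas, Impact, Asb4 and Mcts2 had 2, and Ddc, Dlk1, Ascl2, Inpp5f and Zrsr1 had 1. Ddc and Mcts2 had distal peaks without a peak at a protein-coding start, though Ddc had a promoter peak when every transcript's start was used. Both distal peaks near Mcts2 lay in introns of its host H13. The peak at −1.03 kb from Impact also overlaps its promoter window. The assignment rests on distance alone.

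**Figure D4:**
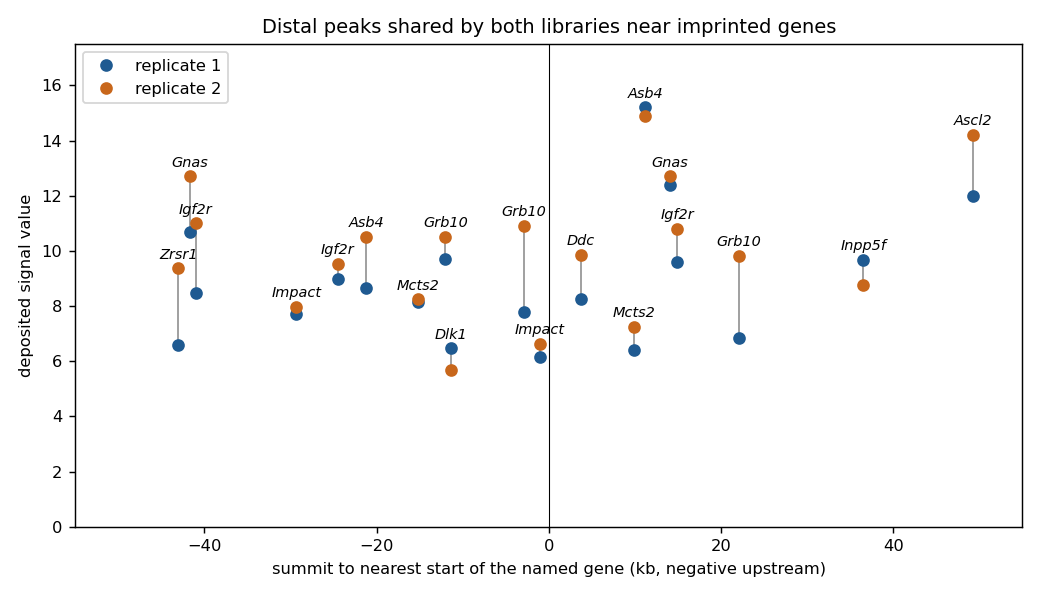
Signal of the 19 shared distal peaks in replicate 1 (blue) and replicate 2 (orange) against the distance (kb) of the summit from the nearest start of the named imprinted gene. The Asb4 peak at 11.2 kb is highest in both libraries, and the Impact peak at −1.03 kb lies next to its promoter.

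Other genes of the imprinting pathway were read from lists of the same kind. Of 18 genes that set or keep imprints, 9 had a promoter peak in both thresholded lists, above the 41.3% of all genes. Another 4 (22.2%) had one in a single thresholded list, against 7.47% of all genes. In both less strict lists were 15 (83.3%) against 58.0%. Hells, a chromatin remodeller that DNA methylation needs, had 7.98 and 10.7, Smchd1, a chromosomal silencing protein, 12.8 and 14.6, and Trim28, the corepressor that ZFP57 recruits, 8.06 and 8.51 in replicates 1 and 2. Zfp57 itself had a less strict peak of 4.83 in replicate 2 alone, and Dnmt3l, a cofactor of germline methylation, one of 5.14 in replicate 1 alone. Of 33 further imprinted genes and domain RNAs, 14 (42.4%) were in both thresholded lists, close to the 41.3% of all protein-coding genes. The same number had no peak in any list, against 36.6% of all protein-coding genes. Among the 24 of these with protein-coding starts, 12 were in both thresholded lists. This was the same share as in the 18 genes above and also above the 41.3% of all genes. The 36 genes were below that 41.3%, with 22.2%. These differences were not tested. Cdkn1c, the cell cycle inhibitor of the Kcnq1 domain, had 6.38 in the replicate 1 thresholded list and a less strict 5.46 in replicate 2.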

How the data were processed

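ATAC-seq peak lists of 2 libraries from 1 group of hematopoietic stem cells were used. Per the labels, the authors' peak lists are in mm10 coordinates, and the notes beside them name uniform processing. Which aligner and caller were used, and whether read ends were shifted for the transposase, is not given in the sources used here. Each deposited peak has a signal value from the caller and −log10 p-value and q-value columns; the ranked lists deposited by the authors add IDR scores (−log10). In both libraries the lowest −log10 global IDR in the thresholded list was 1.30, while the ranked lists also held lines up to 5.00 outside it, so the threshold is not the lists' only difference. Other deposited columns (summit offsets) are positions. Read counts were not used here, so depth and its precision are unknown.

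Intervals listed once per summit were counted once, at the strongest summit (25141 from 34499 lines for replicate 1, 24495 from 34174 lines for replicate 2). Starts came from protein-coding transcripts of GENCODE M21, and peaks were shared at an overlap of 1 bp. A percentile is the share of intervals in the same list with an equal or lower signal. Python 3.11.15, pandas 2.3.3, numpy 2.4.6 and matplotlib 3.10.9 were used, and the overlap code was tested on simulated data. Groups were described and no test was run.

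The genes, the lists and the motifs were chosen with earlier results of these data known. All 36 genes are accounted for; those in a thresholded list, 3 of the others by their mean signal over the libraries, the 5 strongest distal peaks by replicate 1 signal and the highest starts per domain are given in full. The genes beside them (host genes, Zfp57, Dnmt3l, Cdkn1c, Snrpn, Dlk1, Ppp1r9a) come from fixed lists but were chosen to be named after their values were seen. Alternatives were other lists, the 50% strongest peaks, each library alone, windows of 500 and 2000 bp, distal windows of 25 and 100 kb, an overlap of 50%, overlapping peaks at the same start, every transcript's start and the most 5′ start; RefSeq starts and the counts by domain were chosen after seeing the data.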

Additional observations from a re-analysis of the deposited data

How the results depend on the processing

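The main counts were 8 genes, 23 starts, 19 distal peaks, 11 genes with a distal peak and 7 domains. In the less strict pseudoreplicated lists they were 22, 57, 77, 27 and 11. In the series-level thresholded list, made from both libraries, there were 15 genes, 42 starts, 52 distal peaks and 25 genes with one. In the conservative list there were 19, 51, 61 and 25. Their 9 and 10 domains were within 1.5 times the main count. The 15 genes were 41.7%, against 51.9% of all genes, and the 19 were 52.8%, against 54.7%. In the conservative list 69.4% of imprinted genes had a distal peak, against 71.3% of all genes. Among the 50% strongest peaks of each list the counts were 2, 7, 7, 5 and 2. The 2 genes were 5.56%, against 25.6% of all genes, and the 5 with a distal peak 13.9%, against 22.3%. Read from one library alone, by leaving out the other, genes ranged from 11 to 12, starts from 26 to 37, distal peaks from 26 to 37, genes with one from 19 to 21 and domains from 8 to 9, with the higher value from replicate 1 alone except for domains. With the most 5′ start of each gene there were 5 genes (13.9%, against 38.5% of all genes), 5 starts and 4 domains. With every transcript's start there were 38 of 216 starts, against 34.5% of all such starts. The genes were then 10 (27.8%, against 42.5% of all genes), with Ddc and Ppp1r9a added. Within 100 kb there were 34 distal peaks for 18 genes. The other promoter windows, overlap rules, the 25 kb window and RefSeq starts (6 of 31 genes) moved no count by over 1.5 times. The all-gene share with a promoter peak stayed above that of the imprinted genes in each library alone (30.6% of imprinted genes against 44.1% in replicate 2, 33.3% against 46.0% in replicate 1) and not in the less strict lists. A distal peak was near 69.4% of imprinted genes against 65.8% of all genes in the series-level thresholded list, and the mean in the less strict lists was 2.67 per imprinted gene against 2.36. The cause was not tested. No paired analysis was possible because there is 1 group of 2 libraries. Depth is unknown, so a missing peak says only that none was called.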
